A study of Homo sapiens with 4 samples.

Results

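The genes described here are 9 transcription factors by which breast epithelial lineages are told apart: the hormone receptors ESR1 and PGR, the luminal factors GATA3, FOXA1, ELF3 and ELF5, and SOX9, SOX10 and FOXC1, which mark progenitor, neural crest-like and basal states. They were selected by symbol, with earlier results of these data known, and all 9 were found among the 39261 genes of the deposited tables. RNA was sequenced from cultures of a pair of breast cancer cell lines at passages 10 to 15. MDA-MB-231, a triple-negative line, carried either a TMEM126A knockdown construct or a control vector and was grown in L15 medium with 10% fetal bovine serum. MCF10-Ca1a (Ca1a) is a tumour-forming line derived from MCF10A breast epithelial cells. It carried a vector for TMEM126A overexpression or the control vector. Ca1a cells were grown in DMEM/F12 with 5% horse serum, 10 ug/ml insulin, 20 ng/ml EGF, 100 ng/ml cholera toxin and 0.5 ug/ml hydrocortisone. All constructs were introduced with lentivirus. The sources used here do not say whether the cells were clones or pools, nor which sequence the knockdown construct targets. Each of the 4 groups held 1 library, so no test was run and the differences lack a check by replicates.

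Luminal breast cells sense estrogen through the receptor ESR1, which binds chromatin that the pioneer factor FOXA1 has opened and acts together with GATA3. PGR, the progesterone receptor gene, is a direct target of ESR1. ELF5 directs the milk-secreting alveolar fate, whereas FOXC1 and SOX10 are typical of basal-like and triple-negative tumours. TMEM126A, the manipulated gene, encodes a mitochondrial inner membrane protein.

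The libraries held 20673373 to 21405193 reads. A count of 0 was set against a limit of 3 reads, which is 0.140 to 0.145 RPM (reads scaled to a library of 1000000). The exact 95% interval of 0 reads ends slightly higher, at 3.69 reads. TMEM126A followed the labels. It stood at 35.5 FPKM (fragments scaled to transcript length and to depth) in the MDA-MB-231 control and 1.07 FPKM in the knockdown, a ratio of normalized counts of 0.0409 (0.0257 to 0.0619). In Ca1a its level was 17.3 FPKM with the control vector and 651 FPKM with the overexpression construct, a ratio of 35.4 (31.3 to 40.1). Intervals in parentheses are exact 95% intervals that cover counting error alone and leave out differences between cultures. Most marker genes of the basal and luminal epithelium differed between the lines. The basal keratin gene KRT5 stood at 0.281 FPKM in the MDA-MB-231 control and 335 FPKM in the Ca1a control. The basal genes KRT17 (0.946 against 650 FPKM) and TP63 (0.0967 against 5.56 FPKM) were also lower in MDA-MB-231. KRT14, a further basal keratin gene, was near 0 in both controls, at 0.0483 and 0.0451 FPKM. The E-cadherin gene CDH1 stood at 0.203 and 73.6 FPKM. KRT19, a luminal keratin gene, was instead higher in MDA-MB-231, at 163 against 1.04 FPKM. The luminal genes KRT8 (112 against 393 FPKM), KRT18 (110 against 470 FPKM) and EPCAM (3.10 against 131 FPKM) were lower in MDA-MB-231. Of 15 markers of immune cells, fibroblasts, adipocytes and endothelium, only CD68 reached 2 FPKM in any library, and the summed level of the 15 ranged from 31.6 to 103 FPKM. The ribosomal protein gene RPS18, which every cell uses, is listed at 0 in all 4 libraries, so a gene without reads is only listed at 0.

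The start regions of FOXA1, ELF3 and ELF5 are shown because these genes hold the contrast described below: FOXA1 had reads in 1 line alone, ELF3 had the highest treated over control ratio of the members in both lines, and ELF5 was nearly without reads. The sequences are from RefSeq (GRCh38.p14), which held an entry for 7 of the 9 members but not for SOX9 or SOX10. Each is the 250 bases before the start site, read 5′ to 3′ on the strand of the gene. Capitals mark matches, on either strand, to short words that stand for binding motifs. The forkhead word was TGTTTAC. The word for ETS factors was AGGAAG, and that for SOX factors ACAAAG. The TATA box was searched as TATAAA, the GATA motif as AGATAA and the half-site of an estrogen response element as AGGTCA. No 2 matches overlap in these windows. FOXA1 is at chr14:37595250-37595499 on the minus strand, ELF3 at chr1:202010337-202010586 on the plus strand and ELF5 at chr11:34511725-34511974 on the minus strand.
FOXA1: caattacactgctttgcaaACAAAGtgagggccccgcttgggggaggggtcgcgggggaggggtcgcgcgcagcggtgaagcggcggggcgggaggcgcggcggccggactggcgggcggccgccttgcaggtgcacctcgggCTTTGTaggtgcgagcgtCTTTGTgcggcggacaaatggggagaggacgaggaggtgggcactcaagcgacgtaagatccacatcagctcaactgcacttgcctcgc
ELF3: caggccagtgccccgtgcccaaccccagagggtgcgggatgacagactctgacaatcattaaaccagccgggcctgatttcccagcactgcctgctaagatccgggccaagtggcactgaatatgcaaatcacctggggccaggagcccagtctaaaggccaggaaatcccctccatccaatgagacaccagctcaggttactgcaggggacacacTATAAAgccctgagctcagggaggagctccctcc
ELF5: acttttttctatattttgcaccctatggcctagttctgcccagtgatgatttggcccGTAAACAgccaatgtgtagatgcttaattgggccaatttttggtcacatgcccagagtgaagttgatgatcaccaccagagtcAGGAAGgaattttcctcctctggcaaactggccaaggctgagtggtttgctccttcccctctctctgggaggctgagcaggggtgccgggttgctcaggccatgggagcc

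The 3 regions differ in composition. Counted over 300 bases, with the 50 after the start included, the FOXA1 region has a GC content of 69.3% with 34 CpG sites. ELF3 has 59.0% with 7 CpG sites and ELF5 51.3% with 2, against medians of 58.7% and 14 over 35116 RefSeq start regions. FOXA1 has 3 SOX matches, ELF3 a TATA box match that begins 34 bases before the start, and ELF5 one forkhead and one ETS match. Such short words are common: 16.1% of all start regions hold the SOX word, 11.5% the TATA word, 3.42% the forkhead word and 33.6% the ETS word. No match to the GATA word (10.3% of regions) or to the estrogen response half-site (13.8%) is in these windows. The FOXC1 region, at 72.7% GC with 40 CpG sites, is the richest in CpG among the members with a single listed start. ESR1 and GATA3 have 6 listed starts each and PGR has 3.

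The first question was how much of each factor the lines carry. SOX9 was the most abundant of the 9 genes in all 4 libraries, followed by FOXC1, and the hormone receptors were at or near 0. Ca1a carried more of FOXA1, ELF3, FOXC1, GATA3 and ESR1 than MDA-MB-231, each at least 2-fold. Among the 13293 genes with a mean of at least 1 RPM in the controls, 12.5% were at least 2-fold higher in the Ca1a control. FOXA1 and ESR1 passed that filter only through Ca1a, and PGR, ELF5 and SOX10 did not pass it, so the count of 5 is not read against that share. The lines were grown in different media, so line and medium cannot be told apart.

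**Figure D1:**
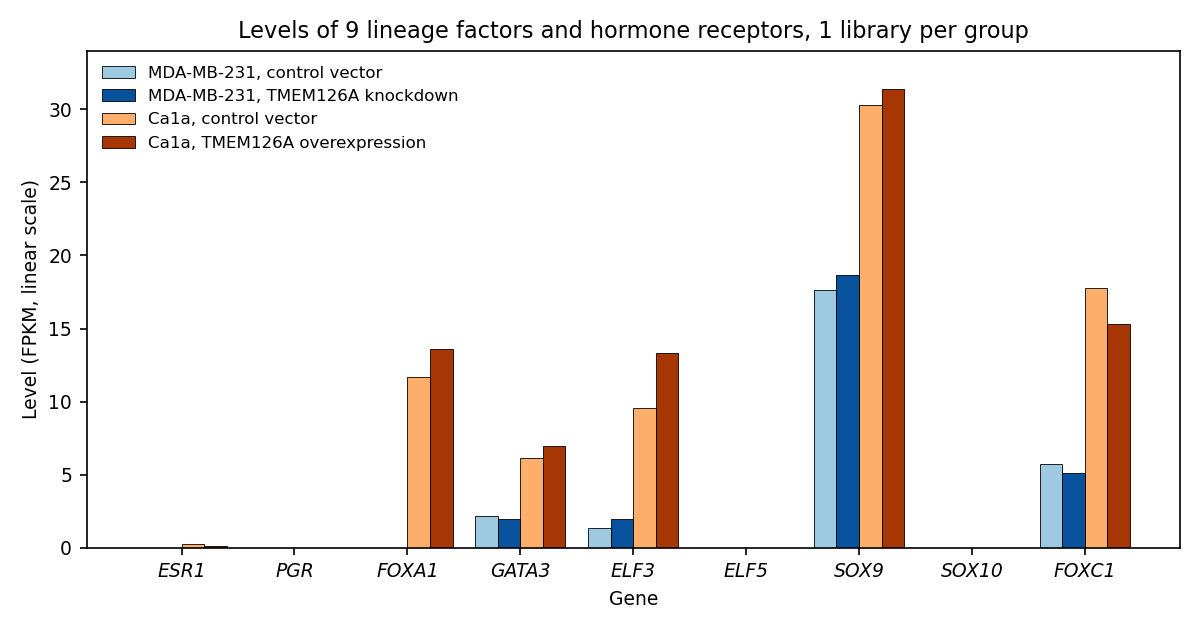
Level of each member (FPKM, linear axis from 0) in the 4 libraries, 1 bar per library, without error bars since each group has 1 library. SOX9 bars reach 17.6 to 31.4 FPKM, FOXA1 bars appear in Ca1a alone, and PGR, ELF5 and SOX10 bars are at or near 0.

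ESR1 (chromosome 6, 151656691 to 152129619, plus strand of GRCh38), the estrogen receptor alpha gene, had 0 reads in the MDA-MB-231 control and 1 in the knockdown. In Ca1a it had 51 reads (0.229 FPKM) with the control vector and 36 (0.153 FPKM) with overexpression. Its level was low there too, above that of 25.6% of the genes with a level above 0 in the Ca1a control. Against the limit of 3 reads in the MDA-MB-231 control, the Ca1a control was 16.5-fold higher, and the exact interval of the ratio began at 12.9. PGR (chromosome 11, 101029624 to 101130524, minus strand) had 0 reads in the MDA-MB-231 control and 1 read in each of the other 3 libraries and so lay under the limit of 3 reads in both lines. SYNE1 overlaps ESR1 on the opposite strand, with no exonic base in common.

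FOXA1 (chromosome 14, 37589984 to 37596059, minus strand) separated the lines most. It was listed at 0 reads in both MDA-MB-231 libraries and had 859 reads (11.7 FPKM) in the Ca1a control and 1022 (13.6 FPKM) in the overexpression library. Against the limit in the MDA-MB-231 control, the Ca1a control was 278-fold higher, and the exact interval of the ratio began at 225.5. In the Ca1a control it stood above 75.3% of the genes with a level above 0. TTC6 overlaps FOXA1 on the opposite strand, shares 16 exonic bases with it and stood at 0.335 and 0.298 FPKM in Ca1a, far under FOXA1.

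GATA3 (chromosome 10, 8045378 to 8075203, plus strand), a zinc finger factor needed for luminal differentiation, was present in all 4 libraries. It had 169 reads (2.21 FPKM) in the MDA-MB-231 control and 173 (1.95 FPKM) in the knockdown, then 488 (6.12 FPKM) and 552 (6.95 FPKM) in the Ca1a control and overexpression libraries. By RPM the Ca1a control was 2.80-fold higher (2.35 to 3.36). Both Ca1a libraries lay above both MDA-MB-231 libraries. GATA3-AS1, its antisense neighbour, had at most 1 read in any library.

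The epithelium-specific ETS factor ELF3 (chromosome 1, 202007945 to 202017188, plus strand) was the member with the widest gap between the lines among the 4 with reads in both controls. It had 154 reads (1.36 FPKM) in the MDA-MB-231 control, 222 (1.94 FPKM) in the knockdown, 1113 (9.54 FPKM) in the Ca1a control and 1596 (13.3 FPKM) in the overexpression library. The Ca1a control was 7.01-fold higher (5.92 to 8.36). In each line the treated library was the higher one. Its close relative ELF5 (chromosome 11, 34478793 to 34513805, minus strand) had 1 read in the overexpression library and 0 in the other 3.

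SOX9 (chromosome 17, 72121020 to 72126420, plus strand) marks luminal progenitor and stem-like cells in the mammary gland. It had 1455 reads (17.6 FPKM) in the MDA-MB-231 control, 1589 (18.6 FPKM) in the knockdown, 2610 (30.3 FPKM) in the Ca1a control and 2736 (31.4 FPKM) in the overexpression library. It stood above 82.8% to 90.2% of the genes with a level above 0 in the 4 libraries. The gap between the controls was 1.74-fold (1.63 to 1.86), the smallest among the 6 members with at least 50 reads in a control. SOX10 (chromosome 22, 37970686 to 37987422, minus strand), a neural crest factor of the same family, had 0 reads in every library. Its opposite-strand neighbour POLR2F, which shares 89 exonic bases with it, stood at 1.01 to 1.70 FPKM.

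FOXC1 (chromosome 6, 1609972 to 1613897, plus strand), a forkhead factor used as a marker of basal-like tumours, was also higher in Ca1a. It had 398 reads (5.76 FPKM) in the MDA-MB-231 control, 364 (5.12 FPKM) in the knockdown, 1262 (17.8 FPKM) in the Ca1a control and 1114 (15.3 FPKM) in the overexpression library. The Ca1a control was 3.08-fold higher (2.75 to 3.45). The treated library was the lower one in each line. ELF3-AS1 and PGR-AS1, which overlap their partners, were not analysed here. The sources used here do not give the strand setting of the counting. How reads in bases shared by opposite-strand genes were counted is therefore not known.

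The order of the FPKM levels in the MDA-MB-231 control was SOX9, FOXC1, GATA3 and ELF3, and the counting intervals of neighbours did not overlap. In the knockdown, GATA3 (1.67 to 2.26 FPKM) and ELF3 (1.70 to 2.22 FPKM) could not be ordered. In the Ca1a control the order was SOX9, FOXC1, FOXA1, ELF3, GATA3 and ESR1, again without overlap. In the overexpression library the ELF3 interval (12.7 to 14.0 FPKM) overlapped that of FOXA1 (12.8 to 14.4 FPKM). The FOXC1 interval (14.4 to 16.3 FPKM) lay above that of ELF3 and met that of FOXA1 at 14.4 FPKM to the digits given. These intervals cover the counting error of reads and leave out error in the step from reads to FPKM. The 2 measures did not always move together. From the MDA-MB-231 control to the knockdown, GATA3 went from 169 to 173 reads but from 2.21 to 1.95 FPKM.

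Relatives of the members filled the families differently in the lines. FOXA2, the pioneer factor of endoderm and the closest relative of FOXA1, had 505 reads (8.25 FPKM) in the MDA-MB-231 control and 0 in both Ca1a libraries. Set at the limit of 3 reads, the Ca1a control was 173-fold lower, the reverse of FOXA1. The exact interval began at 141-fold lower. GATA2, known from blood and prostate, stood at 3.72 FPKM in the MDA-MB-231 control, above GATA3, and at 0.0122 FPKM (2 reads) in the Ca1a control. SPDEF, an ETS factor of luminal and secretory epithelia, stood at 7.35 FPKM (626 reads) in the MDA-MB-231 control and at 0.0303 FPKM (3 reads) in the Ca1a control. EHF, a further epithelium-specific ETS factor, was 3.51-fold lower (3.34 to 3.70) in the Ca1a control, at 9.94 against 34.5 FPKM, while ELF3 was higher there.

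**Figure D2:**
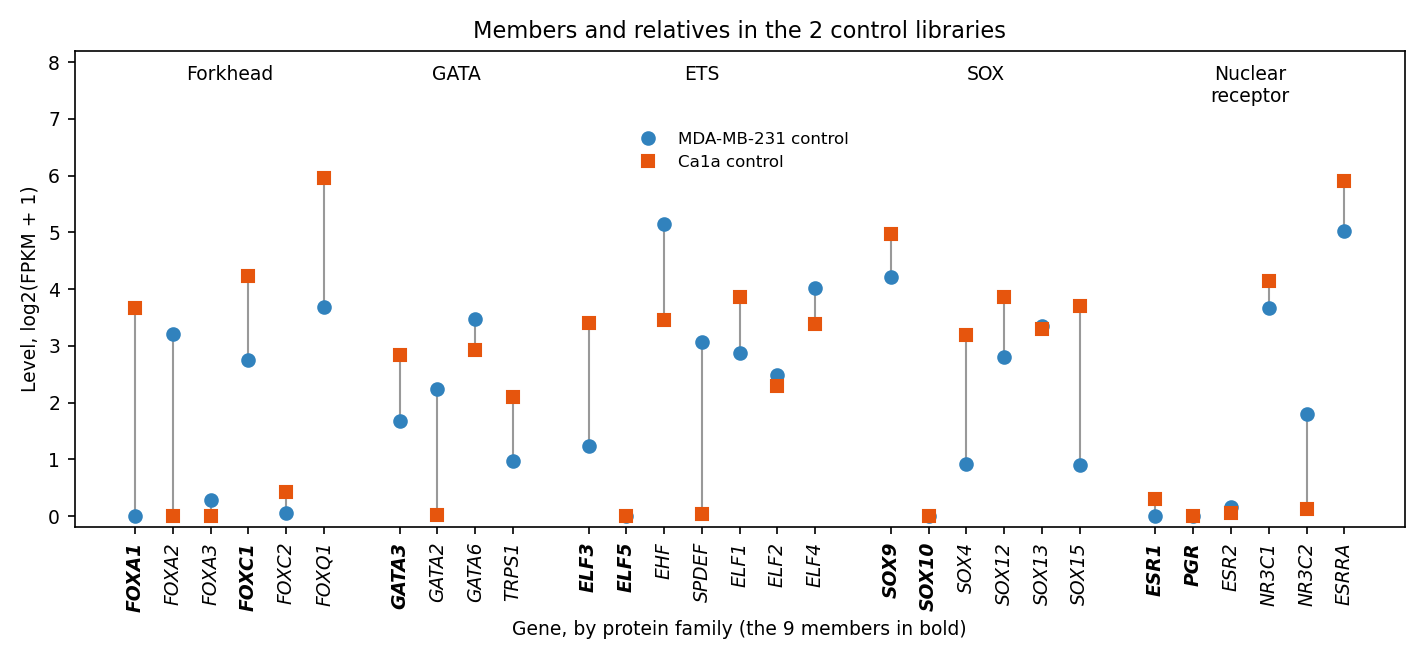
Level of members (bold names) and relatives in the MDA-MB-231 control (circles) and the Ca1a control (squares), as log2(FPKM + 1), grouped by protein family, 1 library per point. FOXA1 (0 and 11.7 FPKM) and FOXA2 (8.25 and 0 FPKM) lie in opposite order in the lines.

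Other nuclear receptors were present where ESR1 and PGR were not. The glucocorticoid receptor gene NR3C1 stood at 11.7 FPKM in the MDA-MB-231 control and 16.7 in the Ca1a control, and the estrogen-related receptor gene ESRRA at 31.7 and 59.0 FPKM. PGRMC1, the gene of a membrane progesterone receptor component and not of a nuclear receptor, stood at 41.8 and 32.3 FPKM. ESR2, the estrogen receptor beta gene, stood at 0.114 and 0.0360 FPKM.

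The second question was whether the members differed between the MDA-MB-231 libraries with and without TMEM126A knockdown. Only ELF3 was higher by more than 10%, FOXC1 and GATA3 lay within counting error, and no member passed 2-fold. Of the 9 members, 4 passed the filter of a mean of at least 20 normalized counts (reads over the library's size factor). ELF3 and SOX9 were higher beyond counting error, meaning that the interval of the ratio left out 1, and 0 members were lower. Among the 13292 genes that passed the filter, 16.8% were higher beyond counting error, 11.3% lower and 0.391% past 2-fold in either direction. With 4 members measured, counts of this size say little beside those shares. Scaled by total reads, 1585 genes were higher and 2223 lower, against 2228 and 1506 with the size factors.

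ELF3 had 155 normalized counts in the control and 221 in the knockdown, a ratio of 1.42 (1.15 to 1.76), higher than that of 97.3% of tested genes. In the authors' deposited table its DESeq p-value is 0.0351 and the adjusted p is 1. SOX9 had 1464 normalized counts in the control and 1579 in the knockdown, a ratio of 1.08 (1.004 to 1.16). That call ended with scaling by total reads (1.05, 0.982 to 1.13) and with edgeR's TMM factors (1.07, 0.995 to 1.15). FOXC1 had 400.5 and 362 normalized counts, a ratio of 0.903 (0.781 to 1.04), and GATA3 170 and 172, a ratio of 1.01 (0.813 to 1.26). ESR1 and PGR had 1 read each in the knockdown, and FOXA1, ELF5 and SOX10 had 0, so a change of these 5 was not detectable at this depth.

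**Figure D3:**
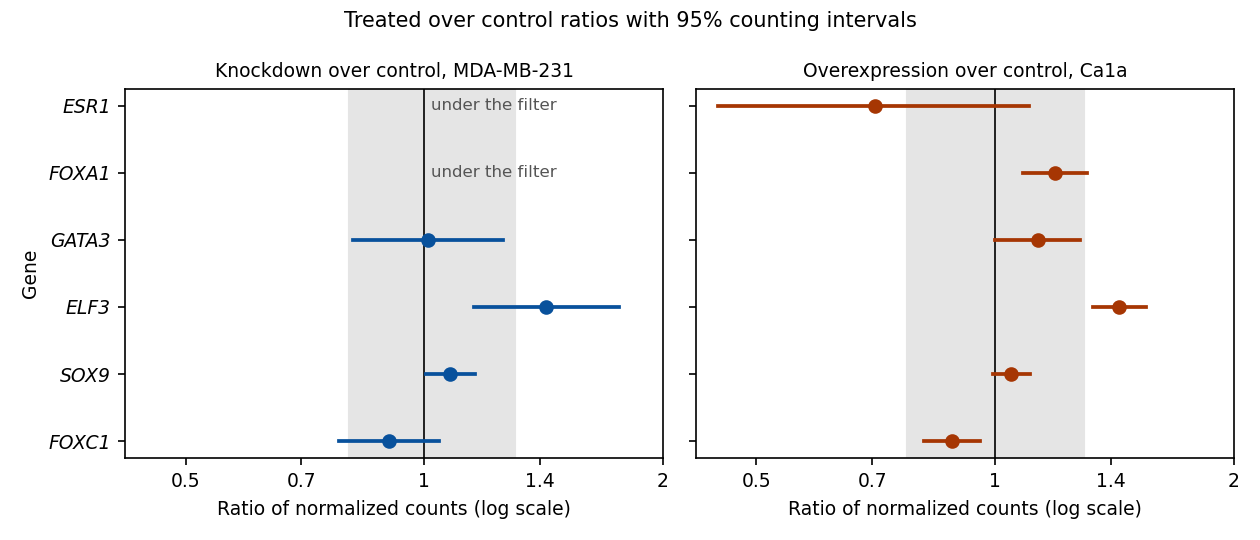
Ratio of normalized counts, treated over control (log axis), for the 6 members that passed the filter in at least 1 line, with exact 95% counting intervals. The grey band holds the central 90% of all tested genes. ELF3 lies at 1.42 in MDA-MB-231 and 1.43 in Ca1a, to the right of the band in both panels, and FOXC1 lies left of 1 in both.

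The third question was whether the members differed in Ca1a when TMEM126A was raised. ELF3 and FOXA1 were higher, FOXC1 was lower, and ESR1, GATA3 and SOX9 lay within counting error. Of the 9 members, 6 passed the filter, with 2 higher, 1 lower and 0 past 2-fold. Among the 12111 genes tested, 18.1% were higher beyond counting error, 16.2% lower and 0.553% past 2-fold.

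ELF3 had 1113 reads in the control and 1596 in the overexpression library, a ratio of 1.43 (1.33 to 1.55), higher than that of 97.6% of tested genes. In the authors' deposited table its DESeq p-value is 0.000737 and the adjusted p is 0.215, and the adjusted p of the other members with a value is 1 in both comparisons. FOXA1 had 859 and 1022 reads, a ratio of 1.19 (1.09 to 1.30). FOXC1 had 1262 and 1114 reads, a ratio of 0.883 (0.814 to 0.958). These 3 calls held with total reads and with TMM. GATA3, at 488 and 552 reads, had a ratio of 1.13 whose interval (0.9996 to 1.28) just included 1. SOX9 had a ratio of 1.05 (0.993 to 1.11). ESR1, at 51 and 36 reads, had a ratio of 0.706 (0.448 to 1.10), so a difference was not detectable at this depth. PGR had 1 read in each library.

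ELF3 was thus the 1 member of the 4 measured in both lines that was higher beyond counting error with less and with more TMEM126A. Of the 11349 genes tested in both, 490 (4.32%) were higher in both. The comparisons share no library.

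Genes that depend on or accompany these factors were read from 7 lists. Their counts stand beside the shares over all tested genes, 16.8% higher and 11.3% lower in MDA-MB-231 and 18.1% higher and 16.2% lower in Ca1a. Genes with more reads leave counting error at smaller ratios, and these shares were not matched to the lists by read number. Luminal identity genes were the list with the most members higher. In MDA-MB-231, 11 of 18 measured genes were higher, 0 lower and 7 within counting error. The median log2 ratio was 0.27 against 0.01 over all tested genes. With total reads, and also with TMM, 10 were higher, 0 lower and 8 within. SPDEF stood at 7.35 FPKM in the control against 12.1 FPKM in the knockdown, a ratio of 1.74 (1.58 to 1.92). MUC1, a luminal surface mucin gene, stood at 5.15 and 7.44 FPKM, a ratio of 1.43 (1.21 to 1.69), and KRT19 at 163 and 220 FPKM, a ratio of 1.39 (1.34 to 1.45). CD24, a luminal surface glycoprotein gene, was the 1 gene of the 7 lists past 2-fold, at 0.146 and 0.393 FPKM and a ratio of 2.72 (1.5 to 5.16) on 16.1 and 43.7 normalized counts. CDH1 had a ratio of 1.51 (0.962 to 2.40) and EPCAM of 0.833 (0.643 to 1.08), neither beyond counting error. The endothelial marker PECAM1 was also higher, at 0.4 and 0.734 FPKM, and the fibroblast marker LUM lower, at 0.817 and 0.314 FPKM. Their part in the list's count was not tested.

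In Ca1a, 8 of 15 measured luminal identity genes were higher, 3 lower and 4 within, with a median of 0.13 against 0.01. KRT8, a luminal keratin gene, stood at 393 FPKM in the control against 511 FPKM with overexpression, a ratio of 1.30 (1.28 to 1.32). CD24 stood at 3.8 and 4.93 FPKM, a ratio of 1.31 (1.16 to 1.49). The tight junction genes CLDN7, at 255 and 237 FPKM with a ratio of 0.894 (0.868 to 0.920), and CLDN4, with 0.943 (0.900 to 0.987), were lower. KRT8, KRT18, KRT19, EHF, ERBB3 and CD24 were higher in both lines, 6 of the 14 genes of the list tested in both. Over all genes tested in both, the share was 4.32%. KRT19 had only 39 and 61 reads in Ca1a, a ratio of 1.56 (1.03 to 2.40). CLDN4 and CLDN7 were higher in MDA-MB-231 and lower in Ca1a, as were 3.37% of all genes tested in both. PECAM1 was again higher, at 0.865 and 1.36 FPKM, and CD68 lower, at 34.9 and 28.9 FPKM. Their part in the count was not tested.

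Basal and neural crest-like genes accompanied FOXC1 in Ca1a only in part. Of 13 measured genes there, 7 were lower (53.8%, against 16.2% of all genes), 3 higher (23.1%, against 18.1%) and 3 within, with a median of −0.04. SNAI2, the Slug gene, stood at 63.8 FPKM in the control against 39.4 FPKM with overexpression, a ratio of 0.651 (0.617 to 0.687). TP63, the basal master regulator, stood at 5.56 and 4.61 FPKM, a ratio of 0.848 (0.777 to 0.925). KRT5 was higher, at 335 and 440 FPKM, a ratio of 1.29 (1.26 to 1.31). In MDA-MB-231, 2 of 10 measured genes were higher, 1 lower and 7 within, near the shares over all genes, with a median of 0.09. EGFR, the lower one, had a ratio of 0.915 (0.887 to 0.945).

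Of 20 estrogen receptor targets, 10 reached 1 FPKM in the MDA-MB-231 control and 7 in the Ca1a control, while ESR1 was at or near 0. In the Ca1a control 5 targets had 0 reads, and 3 had 0 reads in every library. In MDA-MB-231, 5 of 13 measured targets were higher (38.5%, against 16.8% of all genes), 0 lower and 8 within, with a median of 0.12. With total reads, and also with TMM, 5 were higher, 1 lower and 7 within. IGFBP4, an insulin-like growth factor binding protein gene, stood at 426 FPKM in the control against 526 FPKM in the knockdown, a ratio of 1.27 (1.24 to 1.29). CA12, a carbonic anhydrase gene, stood at 3.67 and 5.40 FPKM, a ratio of 1.5 (1.33 to 1.70). In Ca1a, 2 of 12 were higher and 2 lower (16.7% each), close to the shares over all genes, and 8 within, with a median of 0.03. XBP1, a transcription factor gene of the unfolded protein response, stood at 116 and 93.6 FPKM, a ratio of 0.829 (0.798 to 0.863). STC2, a stanniocalcin gene, stood at 57.3 and 63.2 FPKM, a ratio of 1.13 (1.10 to 1.16), and at only 0.760 FPKM in the MDA-MB-231 control. TFF1, a classical estrogen-induced gene, had 10 reads in the MDA-MB-231 control and 0 in the Ca1a control.

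**Figure D4:**
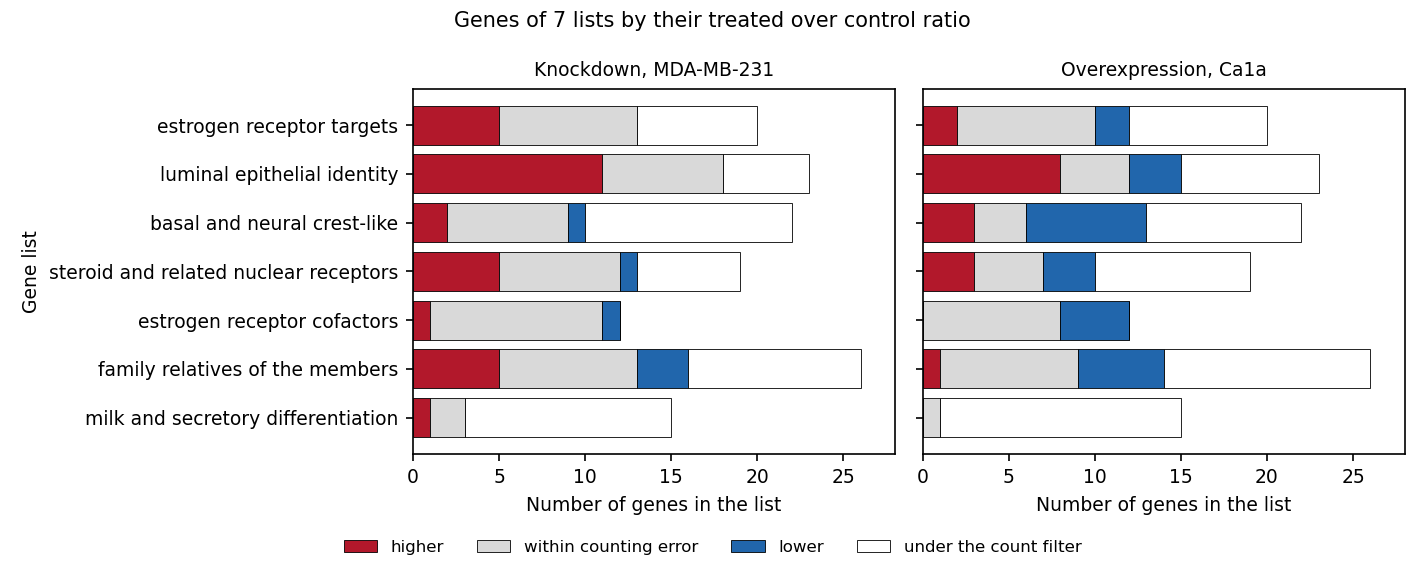
Number of genes of each of the 7 lists that were higher, within counting error, lower or under the count filter in the treated library, left for MDA-MB-231 and right for Ca1a. The luminal identity bar has 11 genes higher at left and 8 at right, and the basal bar has 7 genes lower at right.

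The lists of steroid and related nuclear receptors and of receptor cofactors had members on both sides of 1. The receptor list also holds PGRMC1, PGRMC2 and GPER1, which are not nuclear receptors. Of 13 measured genes of the receptor list in MDA-MB-231, 5 were higher, 1 lower and 7 within, which became 3 higher and 3 lower with total reads. ESR2 was the lower one, with 42.3 and 21.9 normalized counts and a ratio of 0.517 (0.294 to 0.887), and the retinoic acid receptor gene RARG was higher, with 1.26 (1.15 to 1.38). In Ca1a, 3 of 10 were higher and 3 lower, with ESRRA at 0.857 (0.812 to 0.905) and the vitamin D receptor gene VDR at 1.17 (1.06 to 1.30). Among 12 cofactors, 1 was higher and 1 lower in MDA-MB-231, which became 1 higher and 3 lower with total reads. In Ca1a 0 were higher and 4 lower. CREBBP, a histone acetyltransferase gene, was lower in both, with 0.901 (0.843 to 0.963) and 0.858 (0.801 to 0.919).

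Relatives of the members differed within families. In MDA-MB-231, 5 of 16 measured relatives were higher (31.2%, against 16.8% of all genes), 3 lower (18.8%, against 11.3%) and 8 within, with a median of 0.09. With total reads 4 were higher and 4 lower. FOXQ1 stood at 11.9 FPKM in the control against 18.1 FPKM in the knockdown, a ratio of 1.63 (1.44 to 1.85), and FOXA2 at 8.25 and 11.0 FPKM, a ratio of 1.34 (1.19 to 1.51). EHF was higher alongside ELF3, with 1.19 (1.16 to 1.23), whereas the ETS factors ELF4 and ETS1 were lower, with 0.830 (0.780 to 0.883) and 0.861 (0.836 to 0.887). In Ca1a, 1 of 14 was higher (7.14%, against 18.1%), 5 lower (35.7%, against 16.2%) and 8 within, with a median of −0.07. EHF was the higher one, at 9.94 and 11.0 FPKM and a ratio of 1.17 (1.10 to 1.25). ETS1 was lower at 0.766 (0.731 to 0.804), ELF4 at 0.879 (0.813 to 0.95) and GATA6 at 0.831 (0.723 to 0.955). The progenitor factor SOX4 had a ratio of 1.52 (1.15 to 2.03) in MDA-MB-231 and 0.784 (0.704 to 0.873) in Ca1a.

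Genes of milk secretion, which ELF5 governs, were mostly without reads. Of 15, 9 had 0 reads in every library, and 3 passed the filter in MDA-MB-231 and 1 in Ca1a. STAT5A, the transcription factor gene of the prolactin pathway, stood at 5.75 and 5.74 FPKM in the MDA-MB-231 control and knockdown and at 0.0804 and 0.0547 FPKM in Ca1a. PRLR, the prolactin receptor gene, stood at 0.644 and 0.754 FPKM in MDA-MB-231 and had at most 2 reads in Ca1a.

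Genes whose levels were most like those of a member over the 4 libraries were ranked by the Euclidean distance on log2(FPKM + 1), among 14054 genes. The nearest to FOXA1 were SULF2 (distance 0.05) and CNTN3 (0.06), which also stood at or near 0 in MDA-MB-231 and between 11.3 and 13.7 FPKM in Ca1a. GATA3 was nearest to CYB5D1 (0.14) and KLHDC4 (0.15), SOX9 to POLR2H and GSR (0.09 each), FOXC1 to CMTM4 (0.14) and C3orf17 (0.16), and ESR1 to SV2B (0.03) and KIF5A (0.05). ELF3 had no gene as near: LOC728034, a pseudogene, stood at 0.35 and NFIB at 0.39. The ranking rests on 4 points from a pair of lines and is a description.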

How the data were processed

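RNA-seq of 4 libraries, 1 per group, was analysed from the tables that the authors deposited. The submitters' processing notes name the tools HISAT2, Cufflinks, HTSeq and DESeq and the genome builds hg38 and GRCh38.p5. The sources used here give neither their versions nor the strand setting. For Ca1a the values in the authors' DESeq columns were whole numbers and were taken as unscaled read counts per gene, with a size factor of 1. The columns deposited for MDA-MB-231 hold a signal, namely reads over a size factor. All of those values (100%) were whole multiples of the smallest value above 0 within 1e-06, and the multiples were taken as reads. The same deposited tables hold the authors' fold ratio, log2 fold change, p-value and adjusted p-value, of which the p-values of members were copied. A further deposited table holds the authors' FPKM of the 4 libraries, whose denominator the sources do not give.

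Libraries held 20673373 to 21405193 reads. Ratios of normalized counts carry exact conditional binomial (Clopper-Pearson) intervals and levels exact Poisson intervals at 95%, for counting error only, since reads without molecular identifiers are not independent molecules. FPKM intervals are the FPKM scaled by the Poisson interval of the reads. Past 2-fold means an absolute log2 ratio of at least 1 with a pseudocount of 1, an interval without 1, and at least 20 normalized counts on average. The same filter of 20 applies to all ratios. The controls were compared by RPM. Scripts were checked on simulated data.

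The 9 members and the gene lists were chosen with earlier results of these data known. Beside the members, up to 4 genes per list with the highest ratio in size or the highest control FPKM, and the 2 nearest genes per member, were eligible to be named. The choice of GATA2, TFF1, ERBB3, KRT14 and RPS18 was made with their values in view. Gene positions on GRCh38 come from GENCODE release 29 through Entrez identifiers. Some results that the naming rule allows are not reported here. Alternatives were scaling by total reads or TMM, FPKM in place of counts, a pseudocount of 0.5 or 5, a filter of 5 or none, and a threshold of 1.5-fold. Intervals were computed in python 3.11.15 (scipy 1.17.1, numpy 2.4.6, pandas 2.3.3), figures in matplotlib 3.10.9, and TMM factors in edgeR 4.0.16 under R 4.3.3.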

Additional observations from a re-analysis of the deposited data

How the results depend on the processing

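Of 30 counts of genes recomputed under alternatives, 28 stayed within 1.5 times the reported count. The number of members higher beyond counting error in the knockdown library was 2 as reported and 1 both with total reads and with TMM, because the SOX9 interval then included 1. Member ratios moved by less than their counting interval in all 30 recomputed values, although GATA3 in the knockdown went from 1.01 to 0.882 with FPKM and 0.989 with total reads. The median log2 ratio of estrogen receptor cofactors in the knockdown, 0.01 as reported, turned to −0.0135 with FPKM, −0.0203 with total reads and −0.000905 with TMM; the cause was not tested. The other 39 medians kept their sign. Total reads shifted the median of all genes by −0.03 in the knockdown comparison. No paired analysis was possible because each group held 1 library and no test was made. With 1 library per group, the intervals cannot show how much 2 cultures of the same cells differ, and members with 3 reads or fewer allow no ratio.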

Other observations

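Further genes of the luminal and nuclear receptor lists also separated the lines, and these were chosen after their values were seen. GRHL2, an epithelial transcription factor gene, had 5 reads (0.0319 FPKM) in the MDA-MB-231 control and 735 (4.39 FPKM) in the Ca1a control. MLPH, a melanosome transport gene often co-expressed with FOXA1 in breast tumours, went the other way, with 2902 reads (9.08 FPKM) in the MDA-MB-231 control and 0 in the Ca1a control. NR3C2, the mineralocorticoid receptor gene, stood at 2.48 FPKM in the MDA-MB-231 control and 0.0948 FPKM in the Ca1a control.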
